A study of Mus musculus with 2 samples.

Results

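The BAF (SWI/SNF) chromatin remodelling subunits described here are 10 genes, *Smarca4*, *Smarca2*, *Smarcb1*, *Smarcc1*, *Smarcc2*, *Smarce1*, *Smarcd1*, *Smarcd2*, *Arid1a*, and *Arid1b*. They were chosen by symbol from 48321 genes counted by RNA-seq, and all 10 were found in both libraries. The libraries were 2 replicates of 1 group, sorted CD4- mature thymocytes (CD24lo TCRβhi) of MHC-II0:CD8ab Tg mice on the C57Bl/6 background. These mice lack the I-Ab chain of MHC class II, carry disrupted coding regions of both chains at the endogenous *Cd8* locus, and express CD8α and CD8β cDNAs from *Rosa26* after recombination by *Cd4-Cre*, which is active in thymocytes. The transgenic co-receptor was made at a lower level than the endogenous one. Age and sex are not given in the labels, and the labels name the cells in different ways, with titles that give CD4-CD8- cells and cell type fields that give CD8+ cells. They do not say whether the replicates came from separate mice. *Xist*, the RNA made from the inactive X chromosome of female cells, was at 2.03 CPM (counts per 1e6 reads on genes) in replicate 1 and 1555 CPM in replicate 2, so the libraries are not repeats of the same cells, and sex may differ between them. No library of another genotype or cell type was analysed here, and the values below are levels in these cells.

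BAF complexes use the energy of ATP to slide or evict nucleosomes, which opens DNA for transcription factors. Each complex holds a single ATPase, either SMARCA4 (BRG1) or SMARCA2 (BRM), around which core subunits and 1 of several alternative paralogs in most positions are assembled. In thymocytes these complexes are known to take part both in the silencing of *Cd4* and in the activation of *Cd8*. Paralogs in the same position are alternatives in most families, though SMARCC1 and SMARCC2 can be part of the same complex. For this reason the members were compared within their families, and a share of reads is not a share of complexes.

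The sequence before the annotated start is shown for the ATPase pair and for *Arid1a*, the member with the most reads, because the GC box was the motif that every member promoter held. The sequences are those of RefSeq on GRCm38.p6, and only bases outside the annotated exons of each gene are printed. *Smarca4* is read on the plus strand at chr9:21615919-21616168, *Smarca2* on the plus strand at chr19:26604910-26605049, and *Arid1a* on the minus strand at chr4:133756770-133757019. Capitals mark the GC box, GGGCGG on either strand (CCGCCC when read on the other).
Smarca4: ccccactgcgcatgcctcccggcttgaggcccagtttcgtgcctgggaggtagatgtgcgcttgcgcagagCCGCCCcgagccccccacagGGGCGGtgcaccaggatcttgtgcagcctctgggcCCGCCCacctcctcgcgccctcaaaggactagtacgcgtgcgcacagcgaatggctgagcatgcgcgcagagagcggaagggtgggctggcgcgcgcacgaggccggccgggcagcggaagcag
Smarca2: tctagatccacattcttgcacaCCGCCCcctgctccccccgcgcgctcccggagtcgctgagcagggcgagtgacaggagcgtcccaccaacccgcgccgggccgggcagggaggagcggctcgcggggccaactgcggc
Arid1a: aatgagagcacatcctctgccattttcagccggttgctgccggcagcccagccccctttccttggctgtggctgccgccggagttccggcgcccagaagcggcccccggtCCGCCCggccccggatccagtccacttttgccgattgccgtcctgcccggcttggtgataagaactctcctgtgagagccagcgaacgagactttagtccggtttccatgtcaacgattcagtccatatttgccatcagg
The stretch of *Smarca4* holds 3 GC boxes, and those of *Smarca2* and *Arid1a* hold 1 each.

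Promoter windows of 300 bases, from 250 before to 50 after the start, were found for 9 of the 10 members, with 2 windows for *Arid1a*. *Smarce1* was not matched. A GC box was present in 10 of the 10 windows, against 35.7% of all 32851 promoter windows of the table. The members' windows were rich in CpG, with a median observed-to-expected ratio of 0.908 against 0.384 for all windows, and a median GC content of 68.7% against 52.7%. *Smarcd2* stood apart with a CpG ratio of 0.177 and was the only member with the TATA box letters TATAAA, which 13.6% of all windows hold. Its RefSeq start lies 5340 bases inside the gene as annotated by GENCODE, however, and that of *Smarcc1* lies 14316 bases inside. The second start of *Arid1a* lies 2784 bases inside, and those of *Arid1b*, *Smarcd1*, and *Smarca2* lie 742, 158, and 110 bases inside. These windows are thus not those of the outermost start. The CCAAT box letters CCAAT were in 0 of the 10 windows and in 37.4% of all windows, and the E-box CACGTG was in 0 against 7.15%. The ETS core CCGGAA was in 4 windows, of *Arid1a*, *Smarca2*, *Smarcc1*, and *Smarcd1*, against 14.9% of all. The letters TGTGGT, which RUNX factors bind, were in the window of *Arid1b* alone among the members and in 16.8% of all windows. Both strands were searched for each motif, and a match of letters is a description, not evidence of binding.

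The libraries held 16732644 and 16245849 reads on genes, and counts were expressed as CPM. At this depth 3 counts, taken as the smallest level that could be shown, correspond to 0.179 and 0.185 CPM. This limit and the intervals given below cover counting error only. The labelled cell type was checked with marker genes. All 8 T-cell markers were above 1 CPM in both libraries, with a summed level of 3218 and 3180 CPM. *Cd4* was at 0.717 and 1.66 CPM, *Cd8a* at 158 and 171 CPM, and *Cd8b1* at 775 and 786 CPM, and reads from the inserted *Cd8* cDNAs cannot be told apart from those of the endogenous genes. Among the regulators of co-receptor expression, *Runx3* was at 217 and 240 CPM, *Cbfb* at 195 and 204 CPM, *Tox* at 79.2 and 74.2 CPM, *Runx1* at 33.9 and 39.2 CPM, and *Zbtb7b* at 15.4 and 18.1 CPM. Markers of double-positive thymocytes, B cells, myeloid cells, and thymic epithelium summed to between 3.71 and 21.7 CPM per list, with 2 of 5, 1 of 5, 3 of 5, and 1 of 5 genes above 1 CPM in both libraries. Erythroid markers summed to 0.478 and 0.739 CPM, with *Hbb-bs* and *Hba-a1* at 0. The 3 NK-cell markers summed to 221 CPM in replicate 1 and 389 CPM in replicate 2. Of this *Eomes*, which innate memory-like CD8 T cells also express, made up 196 and 355 CPM, and *Klrb1c* and *Ncr1* together 24.8 and 34.3 CPM.

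All 10 subunits were expressed well above the smallest level that the depth could show. Together they took 28315 counts in replicate 1 and 29587 in replicate 2, which is 1692 and 1821 CPM, or 1757 ± 91.2 CPM (SD, n = 2). *Arid1a* alone contributed 36.3% and 34.7% of this sum. Across the members the counts per library ranged from 546 to 10281. Since a longer transcript yields more reads, CPM does not rank genes against each other. Levels of different genes were compared as CPM per kb of annotated exon (the union of all exons of a gene in GENCODE M21), with the longest transcript and the coding length as other divisors, and shares of raw reads within a pair are given beside them with no correction for length. Per kb of exon, 10 of the 10 members lay above the median of the 11835 protein-coding genes tested for which a length was found, which was 5.71 CPM per kb. The median of the members was 13.6 CPM per kb of exon. Per kb of coding sequence *Arid1b* lay below the median of the protein-coding genes, at percentile 43.0.

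**Figure D1:**
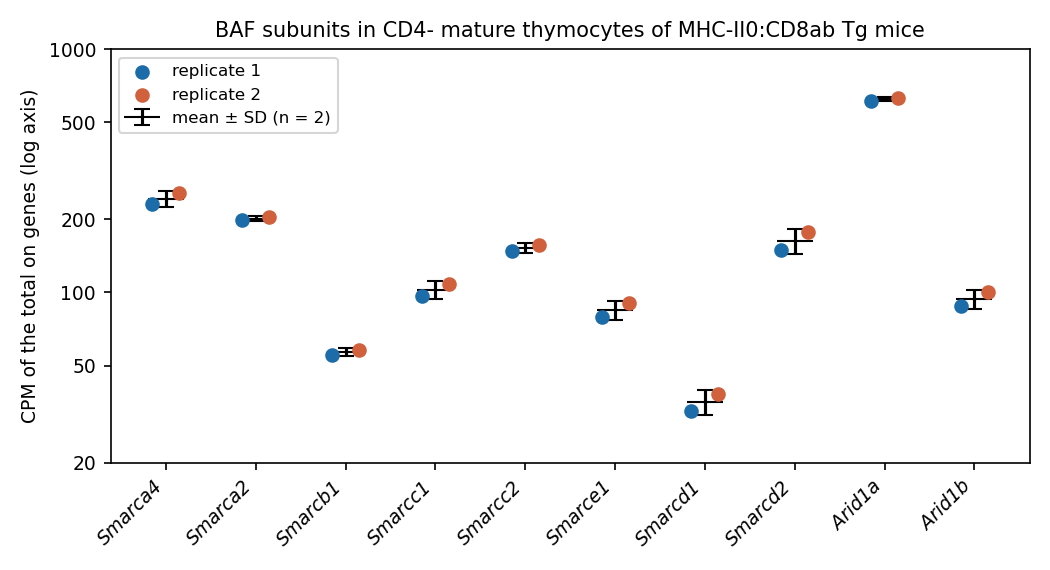
CPM of the total on genes for the 10 BAF subunits on a log axis, with replicate 1 in blue, replicate 2 in red, and bars for the mean ± SD (n = 2). The points run from 32.6 and 38.4 CPM for *Smarcd1* to 614 and 631 CPM for *Arid1a*, are not corrected for gene length, and are higher in replicate 2 for each gene on this scaling.

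The ATPases were examined first. *Smarca4*, which encodes BRG1, is on chromosome 9, plus strand, at 21616169 to 21704230 of GRCm38 (the build that UCSC names mm10). Its counts were 3855 in the first library and 4148 in the second, which gives 230 and 255 CPM. The 95% exact Clopper-Pearson intervals of these levels, taken as shares of the reads on genes, were 223 to 238 CPM and 248 to 263 CPM and did not overlap. This gap depends on the scaling, and *Smarca4* did not differ with the TMM or DESeq2 library sizes described below. On the scaling by the total, 33.0% of genes with at least the counts of the lowest member differed in the test given below. *Smarca2*, which encodes BRM, is on chromosome 19 (plus strand, 26605050 to 26778322). It had 3314 and 3323 counts, equal to 198 and 205 CPM, and the intervals of 191 to 205 CPM for replicate 1 and 198 to 212 CPM for replicate 2 overlapped. Both ATPases were thus transcribed, and the raw counts were higher for *Smarca4* than for *Smarca2* in each library. *Smarca4* took 53.8% of the reads of the pair in replicate 1 (95% exact Clopper-Pearson interval, 52.6 to 54.9%) and 55.5% in replicate 2 (54.4 to 56.7%).

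How far *Smarca4* exceeded *Smarca2* depended on the length by which the counts were divided. Per kb of all annotated exons *Smarca4* was at 37.5 ± 2.72 and *Smarca2* at 14.1 ± 0.32 CPM per kb (SD, n = 2), and *Smarca4* made up 72.6 ± 0.99% of the pair (SD, n = 2). Per kb of the longest transcript of each gene, its share was 52.8 ± 1.24%, and per kb of coding sequence 54.4 ± 1.24%. These lengths lie farther apart for *Smarca2* than for *Smarca4*. The exons of its 46 transcripts cover 14269 bases, whereas its longest transcript has 5921 bases and its coding sequence 4803. For *Smarca4*, with 4 transcripts, these lengths are 6475, 6376, and 4851 bases. With each definition *Smarca4* held over 50% of the pair in both libraries.

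The SMARCC proteins form the scaffold on which the complex is built. *Smarcc2* (BAF170) is on chromosome 10 (plus strand, 128459248 to 128490482), and *Smarcc1* (BAF155) on chromosome 9 (plus strand, 110117708 to 110240178). *Smarcc2* had 2470 and 2555 counts, or 148 and 157 CPM. *Smarcc1* had 1613 and 1763 counts, or 96.4 and 109 CPM. Per kb of exon the levels were 27.5 ± 1.23 CPM per kb for *Smarcc2* and 13.1 ± 1.09 CPM per kb for *Smarcc1* (SD, n = 2), and *Smarcc2* was the higher of the pair in both libraries. The share of *Smarcc1* was 31.6% in replicate 1 and 32.8% in replicate 2 per kb of exon. It rose to 42.4 ± 0.952% (SD, n = 2) per kb of coding sequence, so the order of the pair was kept with a smaller distance.

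*Smarcb1* (SNF5) and *Smarce1* (BAF57) have no paralog in the complex. SMARCB1 is a core subunit that contacts the nucleosome, and SMARCE1 carries an HMG domain that binds DNA. *Smarcb1*, on chromosome 10 (minus strand, 75896769 to 75921617), had 927 and 947 counts, or 55.4 and 58.3 CPM. *Smarce1*, on chromosome 11 (minus strand, 99209047 to 99231017), had 1326 and 1468 counts, or 79.2 and 90.4 CPM. The level of *Smarcb1* per length had the widest range of the 10 members, relative to its level, over the definitions of length, from 7.17 ± 0.258 CPM per kb of exon to 49.2 ± 1.77 CPM per kb of coding sequence (SD, n = 2). The annotated exons of *Smarcb1* cover 7930 bases, of which the coding sequence takes 1155. The level of *Smarce1* was 12.8 ± 1.18 CPM per kb of exon and 68.8 ± 6.37 CPM per kb of coding sequence (SD, n = 2). Of the stretches of 50 bases in the transcripts of *Smarce1*, 15.0% also occur in other genes, among them *Gm8494*, *Smarce1-ps1*, and *Gm4811*. Reads with several alignments were left uncounted, so its count may be too low. The share of its reads lost in this way was not measured.

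The SMARCD proteins (BAF60) link the complex to transcription factors. *Smarcd2* (BAF60B), on chromosome 11 (minus strand, 106263179 to 106272972), had 2511 and 2873 counts, or 150.1 and 177 CPM. *Smarcd1* (BAF60A), on chromosome 15 (plus strand, 99702129 to 99713991), had 546 and 624 counts, or 32.6 and 38.4 CPM. *Smarcd2* was the leading gene of this family in both libraries and under each length. It took 76.4% and 76.8% of the CPM per kb of exon of *Smarcd1*, *Smarcd2*, and *Smarcd3*, and 71.5% on average per kb of coding sequence. *Smarcd1* took 14.8% in replicate 1 and 14.9% in replicate 2. *Smarcd3* (BAF60C), known for its role in heart and muscle, had 413 and 444 counts, and took 8.81% and 8.32%. Of the exon bases of *Smarcd3*, 50.1% overlap *Chpf2* and *Mir671* on the opposite strand, as do 12.7% of those of *Smarcd1* with *Gm17349* and *Gm34939*. The strand setting of the counting is not given in the sources used here, so reads from either strand cannot be assigned with certainty in these overlaps.

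The ARID1 proteins (BAF250) are the large subunits that distinguish the canonical BAF complex from its relatives. *Arid1a*, on chromosome 4 (minus strand, 133679008 to 133756769), had 10281 and 10259 counts, or 614 and 631 CPM. *Arid1b*, on chromosome 17 (plus strand, 4994332 to 5347656), had 1472 and 1627 counts, or 88.0 and 100.1 CPM. The pair was the most unequal of the member families. *Arid1a* took 88.5% of the CPM per kb of exon in replicate 1 and 87.4% in replicate 2, and between 86.9 and 90.2% on average under the other definitions of length. When *Arid2*, which takes the place of ARID1 in the PBAF complex, was added, the mean shares per kb of exon were 74.6% for *Arid1a*, 15.1% for *Arid2*, and 10.2% for *Arid1b*. *Arid1b* was the lowest of these 3 genes, at 7.47 ± 0.683 CPM per kb of exon (SD, n = 2).

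**Figure D2:**
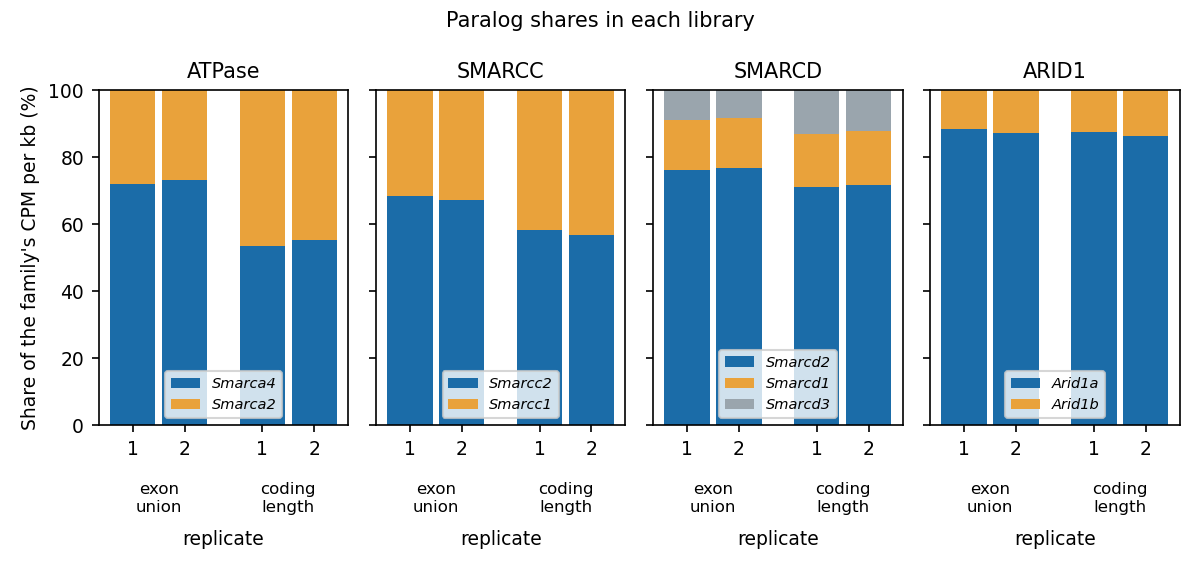
Stacked bars of the share (%) that each paralog takes of its family's CPM per kb in replicates 1 and 2, per kb of the union of exons and per kb of coding sequence. The bars of the 2 replicates lie close together in each family, *Arid1a* and *Smarcd2* lead their families under both lengths, and the share of *Smarca4* falls from 72.6% to 54.4% on average when the coding length is used.

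Ordered by CPM per kb of exon, the members were *Arid1a* (54.3 ± 1.05), *Smarcd2* (45.5 ± 5.28), *Smarca4* (37.5 ± 2.72), *Smarcc2* (27.5 ± 1.23), *Smarca2* (14.1 ± 0.32), *Smarcc1* (13.1 ± 1.09), *Smarce1* (12.8 ± 1.18), *Smarcd1* (8.82 ± 1.02), *Arid1b* (7.47 ± 0.683), and *Smarcb1* (7.17 ± 0.258; SD, n = 2). The values pooled over the libraries overlapped between *Smarcc1* and *Smarce1* and between *Arid1b* and *Smarcb1*. Within each library *Smarcc1* was slightly above *Smarce1*, at 12.3 against 11.9 and 13.9 against 13.6 CPM per kb. *Arid1b* and *Smarcb1* changed order, with 6.982 against 6.986 in replicate 1 and 7.95 against 7.35 in replicate 2. The other neighbours did not overlap over the 2 libraries, though *Smarca2* and *Smarcc1* nearly met, at 13.88 in replicate 1 and 13.86 in replicate 2. In percentiles of the protein-coding genes, the order ran from 94.9 for *Arid1a* to 55.7 for *Smarcb1*. Per kb of coding sequence, *Smarcd2* at 103 ± 11.9 and *Arid1a* at 90.8 ± 1.76 CPM per kb exchanged places, *Smarce1* moved to the third place, and *Smarcb1* moved from the last place to the fifth. There its values of 48.0 and 50.5 CPM per kb overlapped those of *Smarca4* in the fourth place, 47.5 and 52.6 CPM per kb, and the values of *Smarca2* and *Smarcc2* overlapped as well. *Arid1b*, at 13.7 ± 1.25 CPM per kb of coding sequence (SD, n = 2), was the lowest member on this scale and lay at percentile 43.0 of the protein-coding genes.

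**Figure D3:**
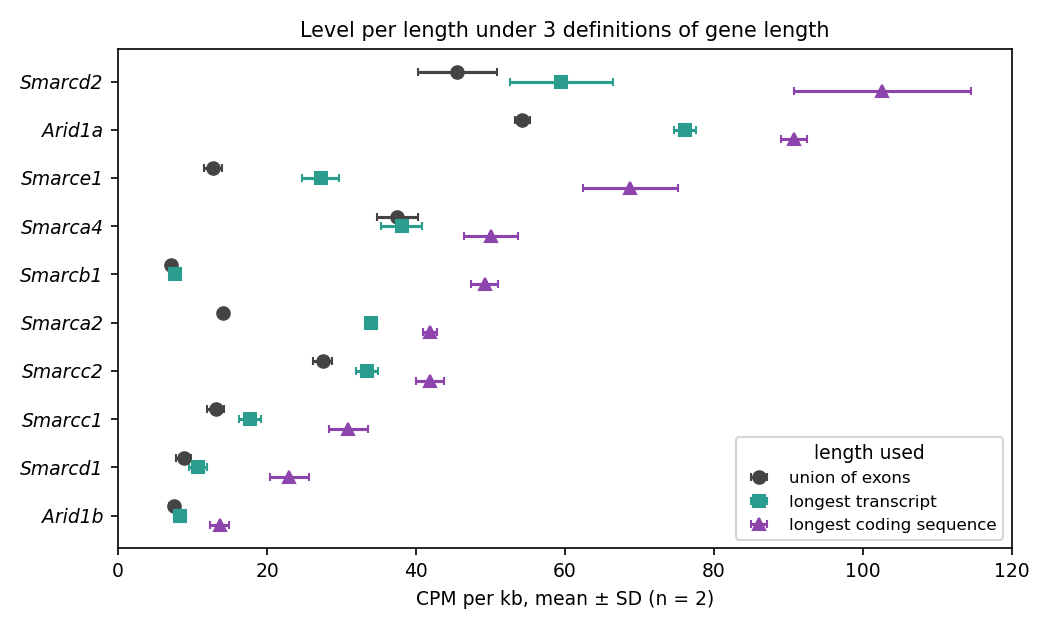
CPM per kb (mean ± SD, n = 2) of each subunit when its counts are divided by the union of its exons (circles), its longest transcript (squares), or its longest coding sequence (triangles). *Smarcd2* and *Arid1a* lie highest under all 3 lengths, and *Smarcb1* moves from 7.17 to 49.2 CPM per kb between the union of exons and the coding sequence.

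Summed by position in the complex, the members were compared as sums of CPM per kb. The ATPase pair summed to 51.6 ± 3.05 CPM per kb of exon (SD, n = 2). Relative to it, the SMARCC pair was at 0.785 ± 0.00131, *Smarcd1* and *Smarcd2* together at 1.05 ± 0.0598, and the ARID1 pair at 1.20 ± 0.037 (SD, n = 2). Per kb of coding sequence these ratios were 0.792 for the SMARCC pair, 1.36 for *Smarcd1* and *Smarcd2*, and 1.14 for the ARID1 pair. The subunits without paralogs lay lower on this scale, with ratios of 0.139 for *Smarcb1* and 0.247 for *Smarce1*, which became 0.535 and 0.747 per kb of coding sequence. *Arid2* and *Pbrm1* of PBAF were at 11.0 and 17.9 CPM per kb of exon. They are not paralogs of 1 position, so their sum, 0.560 of the ATPases, is not comparable with the sums above. Levels of RNA do not give the number of subunits in the assembled complexes.

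Of the 21 other subunits of BAF, PBAF, and non-canonical BAF complexes, 13 lay above the protein-coding median of 5.71 CPM per kb of exon, and their median was 7.90 CPM per kb. Several of these families were carried by a single paralog. *Actl6a* (BAF53A), the form of dividing cells, had 1101 and 1185 counts, whereas the neuronal *Actl6b* had 0 in both libraries, under the smallest level that the depth could show. *Dpf2* (BAF45D) had 1498 and 1691 counts, against 0 and 5 for *Dpf1* and 1 and 2 for *Dpf3*. *Bcl11b*, a zinc finger factor required for T-cell identity that also associates with BAF, was at 308 and 329.5 CPM, whereas its paralog *Bcl11a* had 3 and 5 counts. *Ss18* was at 137 and 146 CPM and took 86.4% of the CPM per kb of its pair with *Ss18l1*. Subunits that define the related complexes were also present, with *Pbrm1* of PBAF at 157 and 159 CPM, *Arid2* at 112 and 124 CPM, and *Brd9* of non-canonical BAF at 50.0 and 59.8 CPM. ATPases of other remodelling families were taken as a further reference. Of these 16 genes, 11 lay above the protein-coding median, and their median of 14.5 CPM per kb of exon lay beside the levels of 37.5 for *Smarca4* and 14.1 for *Smarca2*. *Chd3* at 106, *Chd4* at 94.7, and *Chd1* at 21.6 CPM per kb of exon were the highest of the 16, and *Smarca1* with 0 counts, *Chd9* at 1.79, and *Srcap* at 2.45 CPM per kb of exon the lowest. Per kb of coding sequence *Chd3* at 145 and *Chd4* at 132 stayed the highest, but *Chd1* at 36.7 CPM per kb was no longer among the 3 highest.

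The spread of the subunits between the libraries was then measured, since with a single condition it is the only comparison that the design allows. Each gene with at least 10 counts over both libraries entered an exact binomial test (two-sided), and p-values were adjusted by Benjamini and Hochberg's method over 15949 genes. The test compares these libraries, not conditions. All 10 members had the higher CPM in replicate 2, and the log2 ratio (replicate 2 to replicate 1) lay between 0.04 and 0.24 with a median of 0.16, beside a median of 0.08 for all genes tested. Of all genes tested, 10441 of 15949 were higher in replicate 2. So were 3891 of the 5178 genes with at least as many counts as the lowest member. At an adjusted p under 0.05, 6 of the 10 members differed, all higher in replicate 2. Of all genes tested 16.3% differed in either direction and 13.5% were higher in replicate 2. Since the test calls more genes where counts are high, the same shares were also taken over the 5178 genes with at least as many counts as the lowest member, and were 33.0% and 28.2%. None of the members differed by 2-fold or more with an adjusted p under 0.05 (0 of 10 in the exact binomial test, of which 8 had an unadjusted p under 0.05), as 1.52% of all genes did and 0.212% of the 5178 genes with at least as many counts as the lowest member.

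*Smarcd2* showed the largest difference, with 150.1 CPM in replicate 1 and 177 CPM in replicate 2 (log2 ratio 0.24, adjusted p = 8.01e-08, exact binomial test). *Smarca4* followed by p-value (log2 ratio 0.15, adjusted p = 9.40e-05), and then *Arid1b* (0.19, adjusted p = 0.00389), *Smarce1* (0.19, adjusted p = 0.00586), *Smarcc1* (0.17, adjusted p = 0.00655), and *Smarcd1* (0.24, adjusted p = 0.0370). For *Smarcc2*, *Arid1a*, *Smarca2*, and *Smarcb1* the log2 ratios were 0.09, 0.04, 0.05, and 0.07, with adjusted p-values in the exact binomial test of 0.112, 0.181, 0.433, and 0.535. The interval of the log2 ratio, -0.02 to 0.12 for *Smarca2* and -0.06 to 0.21 for *Smarcb1*, bounds what may have been missed for these. Among the 17 other subunits tested, 7 differed, with 6 higher in replicate 2 and *Actb* higher in replicate 1, and among the 15 other ATPases tested 6 differed, all higher in replicate 2.

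These calls depended on the scaling. With edgeR's TMM library sizes or DESeq2 size factors *Smarcd2* was the single member that differed, and 7 of 10 members were higher in replicate 2. Of all genes tested 10.6% differed with either, so 1 of 10 members is near that share. The median log2 ratio of all genes tested was -0.00102 with TMM and -5.4e-05 with DESeq2, beside 0.083 and 0.084 for the members. The split of all called genes changed from 2146 higher in replicate 2 and 450 in replicate 1 to 824 and 859 with TMM and to 833 and 851 with DESeq2. With mitochondrial and ribosomal RNA genes taken out of the totals, *Smarca4* and *Smarcd2* differed, and 8 of 10 members were higher in replicate 2, while 11.0% of all genes tested differed. When edgeR's exact test was run with the biological coefficient of variation set to 0.1, 0 of the 10 members differed, 0 had an unadjusted p under 0.05, and the lowest unadjusted p of a member was 0.256. In that test only 0.464% of all genes tested differed (74 of 15949), 60 of them by 2-fold or more. The 0 of 10 is near that share, and the test could not show differences as small as those of the members. Ribosomal RNA repeat genes made up 14.4% of the total in replicate 1 and 11.3% in replicate 2. Without mitochondrial and ribosomal RNA genes in the totals, the median log2 ratio was 0.10 for the members and 0.02 for all genes tested. *Xist* and *Eomes* also differed between the libraries, as given above. Whether sex or the makeup of the sorted cells had a part in the differences of the subunits was not tested.

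**Figure D4:**
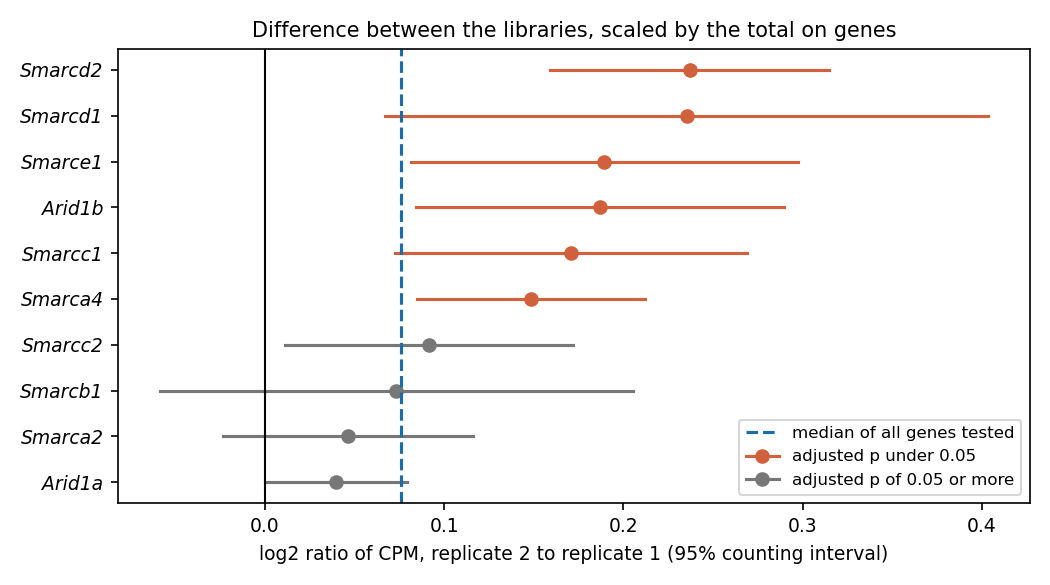
Log2 ratio of CPM of replicate 2 to replicate 1 for each subunit with its 95% interval from counting error, in red where the adjusted p was under 0.05 and in grey otherwise, with a dashed line at the median of all genes tested. The 10 points lie between 0.04 and 0.24, to the right of 0, on the scaling by the total on genes, and with TMM or DESeq2 library sizes 7 of 10 lie above 0.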

How the data were processed

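Poly(A) RNA of the sorted cells was sequenced as single-end reads of the NEBNext kit. Alignment to mm10 was done by the authors with TopHat 2.1.1 and counting with HTSeq 0.6.1. The deposited values are raw counts per gene for 2 libraries, with no normalization. The tool versions are from the submitters' processing notes. The annotation and the strand setting are not given in the sources used here. Reads with several alignments were left uncounted. Of uniquely aligned reads, 40.6% and 41.2% fell on genes and 3.52% and 2.92% were ambiguous, and rows that name no gene were left out of totals and tests.

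CPM of the total on genes was computed from the deposited counts, with mean and SD over the 2 replicates. Of 48321 symbols, 46290 were found once in GENCODE M21 (GRCm38), the source of positions and of 3 lengths: union of exons, longest transcript, and longest coding sequence. Genes with at least 10 counts entered an exact binomial test, two-sided, of replicate 2 against replicate 1 (scipy 1.17.1) with Benjamini-Hochberg adjustment (statsmodels 0.14.6). The test was checked on simulated data with large planted changes and counting error only. That check does not cover spread between replicates or differences as small as those of the members. Alternatives used edgeR 4.0.16 (TMM factors 0.974 and 1.03, and its exact test at a set biological coefficient of variation of 0.1), DESeq2 1.42.0 size factors (0.989 and 1.01), and totals from which 393 mitochondrial and ribosomal RNA genes were removed. Python 3.11.15 and R 4.3.3 were used. The members and the gene lists were chosen with earlier results of these data known. The named genes are the 10 members, any of the 21 other subunits, the 3 highest and 3 lowest of the other ATPases, and the lineage and marker genes. No genes were named for a pattern like that of the subunits, since there are 2 libraries of 1 condition. The levels of some single marker genes are not reported here.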

Additional observations from a re-analysis of the deposited data

How the results depend on the processing

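The share of *Smarca4* in its pair moved from 72.6% per kb of exon to 52.8% with the longest transcript, 54.4% with the coding length, and 54.6% with raw counts, by more than 1 SD. In the same order, the share of *Smarcc1* moved from 32.2% to 34.7, 42.4, and 40.2%, that of *Smarcd1* in its trio from 14.8% to 13.9, 16.0, and 15.8%, and that of *Arid1a* from 87.9% to 90.2, 86.9, and 86.9%. Without mitochondrial and ribosomal RNA genes in the totals, the summed level of the subunits rose from 1757 to 2050 CPM and each of the 10 members rose beyond 1 SD, as the totals were smaller. TMM and DESeq2 library sizes moved none of the 10 levels by more than 1 SD. This was largely set in advance, since these factors are balanced around 1 over the 2 libraries and hardly change a mean. The number of members that differed between the libraries fell from 6 to 1 with TMM, 1 with DESeq2, 2 without mitochondrial and ribosomal RNA genes, and 0 in edgeR's exact test, and their median log2 ratio from 0.16 to 0.083, 0.084, and 0.10 under the first 3 of these. The share of all genes tested that differed fell from 16.3% to 10.6, 10.6, 11.0, and 0.464% in the same order. The number of members was 5 with at least 1 count and 6 with at least 100, beside 9.55% and 23.9% of all genes tested. With either replicate left out, the summed level ranged from 1692 to 1821 CPM, and with 2 replicates no mean can move by more than 1 SD in this way. No paired analysis was possible because there is a single group. With 2 libraries of 1 group, differences between conditions could not be tested, and levels of genes that share sequence with copies are limited by the uncounted reads.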
